A study of Homo sapiens with 2 samples.

Results

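Long intergenic RNAs carrying a LINC symbol were compared between SK-UT-1 and SK-LMS-1, 2 established lines of leiomyosarcoma, a malignant tumour of smooth muscle. The count table lists 876 genes whose symbol is LINC followed by digits, among 26485 genes in all. The 104 of them with at least 20 counts summed over both libraries, 11.9% of the LINC genes listed, were taken as expressed and are called members here. Members were thus chosen by their summed count, so their overall level is a description and not a result. A further 567 LINC genes (64.7%) had 0 counts in both libraries and 205 had 1 to 19. By the same measure 12152 of 18963 protein-coding genes (64.1%) reached 20 counts, and 3910 (20.6%) had 0 in both. At the lower edge, LINC00452, LINC01311 and LINC01535 had a summed count of 19 and were left out, while LINC00623, LINC01125 and LINC01569 had 20 and were kept.

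Both lines had been treated with DMSO, the solvent control, and each is represented by 1 library made from total RNA with a strand-specific kit. The series title places the work in uterine leiomyosarcoma and the combination of SUV39H2 and PARP inhibitors, and no inhibitor-treated library was analysed here. Total counts were 7635850 in the SK-UT-1 library and 6906280 in the other. With 1 library per line there is no replicate spread and no test between the lines is possible, so ratios are given with an exact 95% interval that covers counting error only. Differences between the lines cannot be told apart from differences between 2 single cultures or library preparations, and fewer expressing cells cannot be told apart from less RNA per cell. Of 9 smooth muscle markers, 7 had at least 10 counts in SK-UT-1 and 6 in SK-LMS-1, with a summed level of 464 and 1300 CPM (counts scaled to library size). CALD1 and MYLK made up most of that sum in SK-LMS-1, while the actin gene ACTA2 (54.0 and 10.5 CPM) and the desmin gene DES (3.23 and 0.153 CPM) were higher in SK-UT-1. TAGLN (5.34 CPM in SK-UT-1 and 61.8 in SK-LMS-1), CNN1 (2.48 and 9.77) and TPM2 (45.6 and 54.6) were higher in SK-LMS-1. So was MYH11 (0.248 and 0.763 CPM), on 2 and 5 counts. MYOCD, the smooth muscle master regulator, was at 0 in both. Among the markers of other cell types, PTPRC of leukocytes, VWF of endothelium and KRT5 of squamous epithelium were at 0 in both lines. Other markers of these types had few counts in SK-UT-1 and SK-LMS-1, with PECAM1 at 0 and 8, CDH5 and CD3E at 0 and 2 each, EPCAM at 9 and 1, and CDH1 at 4 and 0. KRT8, a keratin of simple epithelia, had 130 counts in SK-UT-1 and 107 in SK-LMS-1, and the lysosomal CD68 had 117 and 602.

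As background, LINC is the systematic name given to long RNA genes that lie between protein-coding genes and have no known product or function when they are named. Most are transcribed by RNA polymerase II, capped and spliced like messenger RNAs, but they are less abundant, more often limited to particular cell types, and poorly conserved in sequence. Some act as RNA, for instance by binding proteins. Others influence a neighbouring gene through their transcription, and several were later found to encode a microprotein and were renamed.

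The present RefSeq entries reflect that history. Of the 104 members, 76 kept their symbol and 28 have another one today. RefSeq lists 94 as long non-coding RNA, 9 as protein-coding and 1 as a transcribed pseudogene. The members lie on 23 chromosomes, and 16 consist of 1 exon. Of the members, 6 have several loci and 5 share exon bases with another gene on the same strand. Together these are 8 members whose counts are uncertain, among them LINC01296, LINC01123, LINC01106 and LINC00969, and 96 have neither problem.

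Members were lowly expressed. Their median summed count was 65, against 456 for the protein-coding genes that passed the same minimum, and 70 of 104 (67.3%) had fewer than 100 counts. Per kilobase of exon the median level was 1.97 RPKM (CPM per kilobase of exon, mean of both lines), against 9.45 for protein-coding genes, with a median exonic length of 2193.5 and 3496 bases. The members together took 0.177% of the SK-LMS-1 counts (95% Clopper-Pearson interval 0.174% to 0.180%) and, of the SK-UT-1 counts, 0.104% (0.101% to 0.106%). LINC00657, now NORAD, alone gave 32.9% of the member counts in SK-UT-1 and 43.5% in SK-LMS-1. Without it the members took 0.0695% of the SK-UT-1 counts and 0.10% of those of SK-LMS-1.

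NORAD is a cytoplasmic RNA that is needed for stable chromosome segregation. Its single exon lies at chr20:36045618-36050960 on the minus strand. It had 5329 counts (152 RPKM) in SK-LMS-1, against 2606 (60.6 RPKM) in SK-UT-1, and was higher in SK-LMS-1, with a 2.51-fold ratio (2.40 to 2.63).

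The next members by length-scaled level had varied histories. LINC00998, at chr7:113116718-113118582, encodes the small membrane protein SMIM30 and stood at 50.6 RPKM in SK-LMS-1, against 9.26 in SK-UT-1. LINC01420, at chrX:56729285-56817571, encodes NBDY, a microprotein of the mRNA decapping complex, and stood at 32.3 and 27.6 RPKM. LINC01578, now CHASERR, is a nuclear RNA known to restrain its neighbour CHD2, and stood at 13.6 and 21.1 RPKM. LINC00958 reached 19.9 RPKM in SK-UT-1 and 0.196 in SK-LMS-1. LINC00963 had 13.9 and 4.22 RPKM, LINC00674 had 12.3 and 5.53, and LINC00493, which encodes the mitochondrial protein SMIM26, had 10.5 and 7.07. LINC01317 ranked next through SK-LMS-1 alone, with 16.0 RPKM there and 0 in SK-UT-1. The order of these levels is a description. For LINC00963 and LINC00674, next to each other in it, the means of both lines were 9.05 and 8.91 RPKM.

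Differences between the lines were more frequent among members than among genes at large, and mostly toward SK-LMS-1. Counting a member as different at 4-fold or more, with counts under 3 raised to 3, 37 members (35.6%) differed toward SK-LMS-1, meaning that they were higher there, and 12 (11.5%) toward SK-UT-1. Over all 13269 genes with 20 summed counts, 10.7% differed toward SK-LMS-1, 7.08% toward SK-UT-1 and 17.8% in either direction. To compare at equal level, protein-coding genes were also weighted to the summed counts of the members, which gave 18.3% toward SK-LMS-1 and 17.1% toward SK-UT-1. The members thus stood above their level-matched background in one direction and below it in the other. Of the 37 members, 20 had 0 counts in SK-UT-1, and of the 12, 1 had 0 in SK-LMS-1. A gene at 0 in 1 line reaches the minimum of 20 through the other line alone. With the floor of 3 it therefore passes 4-fold by construction, so the count of such genes, given below, is not a separate result. In all, 71 of 104 members (68.3%) were higher in SK-LMS-1, against 49.2% of protein-coding genes of the same level. The median log2 ratio of SK-LMS-1 over SK-UT-1 was 0.97 for members and 0.003 for all genes. This shift depended on the low end of the set, as the median was 0.59 for members with at least 50 summed counts and 0.38 for those with at least 100.

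**Figure D1:**
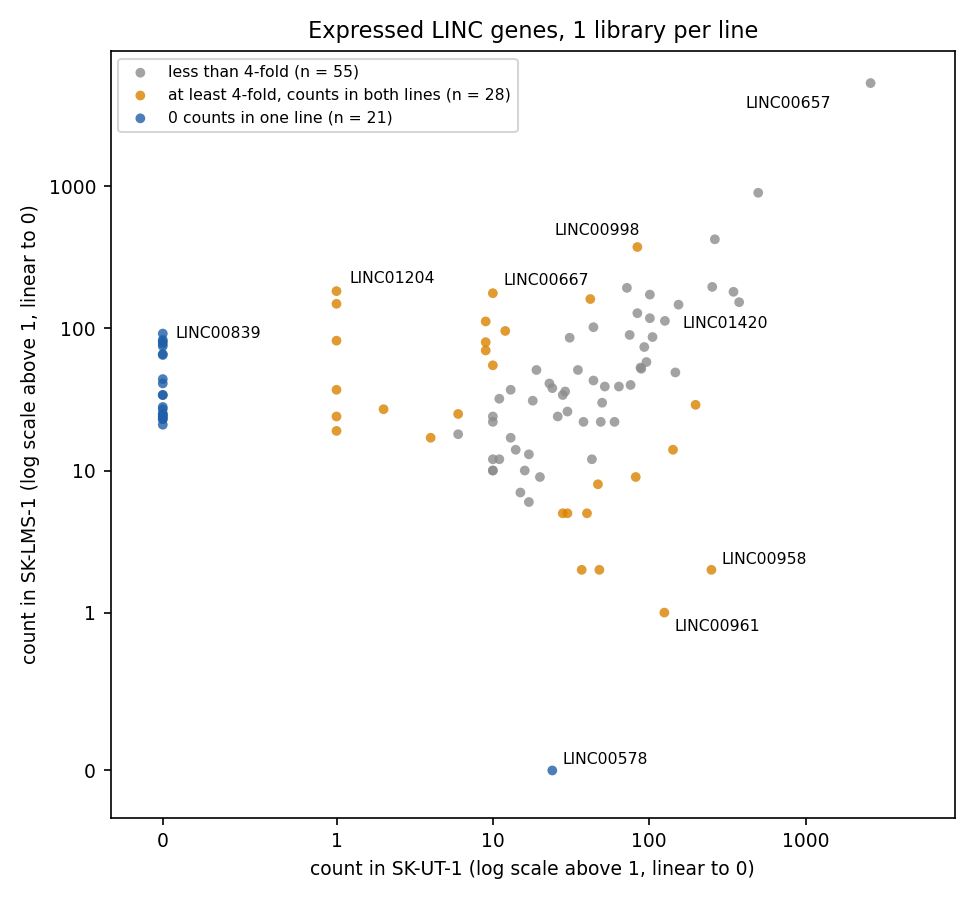
Count of each of the 104 members in SK-UT-1 (horizontal) and SK-LMS-1 (vertical), both axes logarithmic above 1 and linear between 0 and 1; blue points have 0 counts in 1 line, orange points differ at least 4-fold with counts in both lines, and grey points differ less. The blue points form a column at 0 in SK-UT-1 that reaches 92 counts in SK-LMS-1, while LINC00578 is the only member at 0 in SK-LMS-1.

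Silent members, meaning those with 0 counts in 1 line, were nearly all silent in SK-UT-1. Of the 104 members, 21 (20.2%) were silent in 1 line, and 20 of these were silent in SK-UT-1 and 1 in SK-LMS-1. Over all genes with 20 summed counts 4.89% were silent in 1 line, 2.85% in SK-UT-1 and 2.04% in SK-LMS-1, and over protein-coding genes 4.74%. Protein-coding genes weighted to the members' summed counts were silent in 13.4% of cases, which corresponds to 13.9 of 104 members. For SK-UT-1 alone the shares were 19.2% of members and 6.47% of level-matched protein-coding genes. For SK-LMS-1 they were 0.962% and 6.91%. Silence in 1 line was therefore more frequent than among protein-coding genes of equal level in SK-UT-1, and less frequent in SK-LMS-1, in these 2 libraries.

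With silence as 0 counts, the excess lay at summed counts under 100. Of 40 members with 20 to 49 summed counts, 14 (35.0%) were silent in 1 line, against 232 of 1032 protein-coding genes (22.5%). Of 30 members with 50 to 99 counts, 7 (23.3%) were silent, all in SK-UT-1, against 121 of 1059 protein-coding genes (11.4%), which were split into 64 silent in SK-UT-1 and 57 in SK-LMS-1. None of the 34 members with 100 or more counts was silent, which allows a share of up to 8.82%. Among protein-coding genes the share at that level fell from 6.37% at 100 to 199 counts to 0.414% at 1000 or more. Weighted to the members it was 4.42%, which lies under that limit, so that a lower share among these 34 members was not detectable. With fewer than 3 counts taken as silent, 32 members (30.8%) qualified, against 7.26% of all genes and 20.5% of level-matched protein-coding genes, and 4 of the 34 members with 100 or more counts were among them. By this definition 3 of 18 members (16.7%) qualified at 100 to 199 counts, against 8.54% of protein-coding genes. At 200 to 499 counts 1 of 11 did (9.09%), against 3.94%. Of the 3 members at 500 to 999 counts and the 2 at 1000 or more, none did. These shares rest on 4 members, too few to tell whether the excess extended to 100 counts or more.

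**Figure D2:**
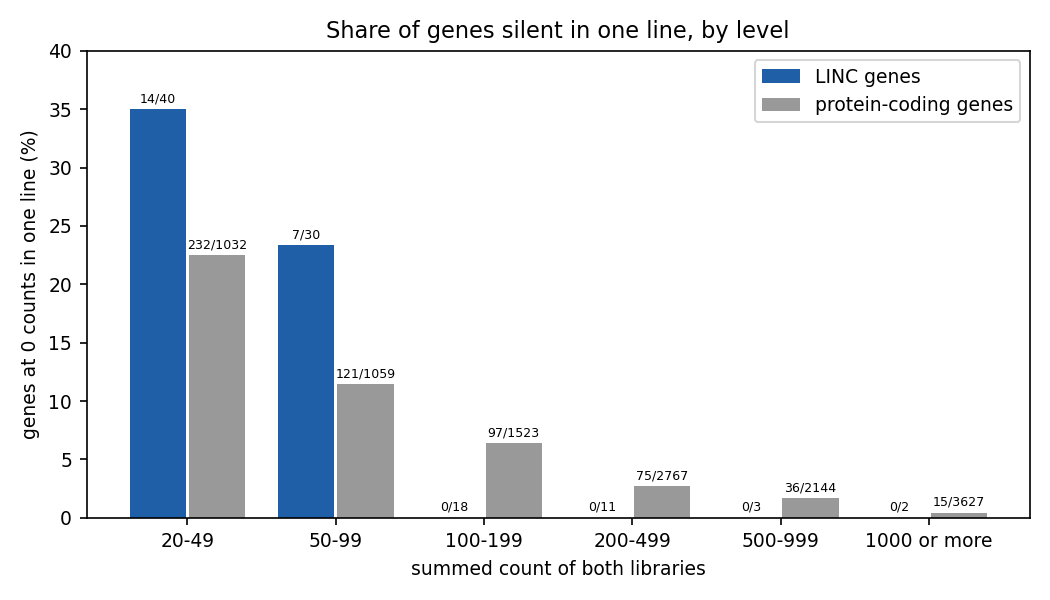
Share of genes with 0 counts in 1 line (vertical, percent) by the summed count of both libraries (horizontal), for LINC members (blue) and protein-coding genes (grey), with the number silent and the number in the bin above each bar. The members stand above protein-coding genes at 20 to 49 counts (35.0% and 22.5%) and at 50 to 99 counts (23.3% and 11.4%), and no member with 100 or more counts was silent.

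In SK-LMS-1, the 20 members silent in SK-UT-1 had 21 to 92 counts (median 34), or 3.20 to 14.0 CPM. A count of 0 in SK-UT-1 allows up to 0.373 CPM, the level of 3 counts, and against that floor the members were higher in SK-LMS-1 by at least 8.60-fold to at least 37.7-fold. Ratios above 4-fold were fixed in advance here, because these members passed the minimum of 20 through SK-LMS-1 alone. Here "at least" refers to the floor alone, and the exact 95% lower limits, which also take in the error of the SK-LMS-1 count, ran from 6.40 to 30.0. These 20 lie on 13 chromosomes, and only LINC01060 among them has several loci. Of the 20, LINC00839, LINC00619, LINC00840 and LINC01435 are on chromosome 10, which holds 9 members. Of 470 protein-coding genes on that chromosome 7 (1.49%) were silent in SK-UT-1, but these were not matched to the level of the members. Over all chromosomes the protein-coding share silent in SK-UT-1 was 2.67% without such matching and 6.47% with it.

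LINC00839, at chr10:42475491-42495337 on the plus strand, had the largest count of the silent members, 92 in SK-LMS-1 against 0 in SK-UT-1. That is a difference of at least 37.7-fold against the floor, with a lower 95% limit of 30.0. LINC01436, at chr21:36005320-36008295, had 83 and 0 counts and was at least 34.0-fold higher (lower limit 27.0). Both are spliced RNAs without a settled function, and both were read in 1 line only.

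LINC01317 spans chr2:33706886-34297746, and its 772 exonic bases gathered 81 and 0 counts, at least 33.2-fold (lower limit 26.4). LINC01605, on chromosome 8 at 37406464 to 37521386, had 78 and 0 counts and was at least 31.9-fold higher (lower limit 25.4). LINC01551, at chr14:28772704-28794794, had 75 and 0 counts and was at least 30.7-fold higher (lower limit 24.4). All 3 were read in SK-LMS-1 only.

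LINC00886, at chr3:156747343-156817062, had 66 and 0 counts and was higher in SK-LMS-1 by at least 27.0-fold (lower limit 21.4). LINC01224 lies in the zinc finger gene cluster of chromosome 19 at chr19:23399236-23416074 and had 65 and 0 counts, at least 26.6-fold (lower limit 21.0). LINC01239, at chr9:22646200-22824213, had 44 and 0 counts, at least 18.0-fold (lower limit 14.0). The other 12 had 41 counts or fewer in SK-LMS-1. They include LINC00669, now MIR924HG, whose span holds the microRNA genes MIR924 and MIR5583-2, with 34 and 0 counts.

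The reverse case was a single gene. LINC00578, at chr3:177441921-177752704, had 24 counts in SK-UT-1, or 2.98 CPM, against 0 in SK-LMS-1, and was higher in SK-UT-1 by at least 6.51-fold against a floor of 3 counts, with a lower 95% limit of 4.90. On the same chromosome, LINC00886, LINC01322 and LINC00960 were silent in the other line.

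The 4 members with 100 or more summed counts and fewer than 3 in 1 line were these. LINC01204, at chrX:45505388-45527239, had 183 counts in SK-LMS-1 and a lone count in SK-UT-1, a ratio of 225 with a wide interval of 39.8 to 8926. LINC01085, at chr4:14111968-14140052, had 149 and 1 counts, a ratio of 183 (32.3 to 7277). The other pair was high in SK-UT-1. LINC00958, at chr11:12979534-12989548, had 250 counts in SK-UT-1 against 2 in SK-LMS-1, a ratio of 102 (27.9 to 845). LINC00961, which encodes the lysosomal microprotein SPAAR, had 125 and 1 counts, also a ratio of 102 (17.9 to 4051). All 4 intervals lie above 4-fold.

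Among members with counts in both lines, 17 differed at least 4-fold toward SK-LMS-1. The SMIM30 gene LINC00998 had 374 counts in SK-LMS-1 against 84 in SK-UT-1, and was higher in SK-LMS-1, with a 5.47-fold ratio (4.31 to 7.01). LINC00667, at chr18:5238100-5246506, had 177 and 10 counts and was 21.7-fold higher (11.5 to 46.1). LINC00997, at chr7:32758286-32762924, had 161 and 42 counts and was 4.71-fold higher (3.33 to 6.78). The last interval reaches below 4-fold, so its place in this count is not fixed by the counts. LINC01279, at chr3:112596794-112601969, had 112 and 9 counts and was 15.3-fold higher (7.77 to 34.3). RefSeq now treats its name as an older symbol of CCDC80, a gene for a secreted matrix protein.

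Toward SK-UT-1, 11 members with counts in both lines passed 4-fold. Besides LINC00958 and LINC00961, LINC00707 at chr10:6779598-6842906 had 198 counts in SK-UT-1 against 29 in SK-LMS-1, and was higher in SK-UT-1, with a 5.56-fold ratio (3.75 to 8.52). LINC01547, at chr21:44933284-44939913, had 47 and 8 counts and was 4.78-fold higher (2.24 to 11.7). Both intervals include 4-fold. LINC01296 had 142 and 14 counts and was 8.26-fold higher (4.76 to 15.5), but its locus is the pseudogene DUXAP9, has several copies and shares exon bases with DUXAP10. LINC01123 had 82 and 9 counts and was 7.42-fold higher (3.72 to 16.8), but it has several loci and shares exon bases with LINC01106. The counts of these last members cannot be assigned to 1 locus with certainty. Requiring the whole interval to lie beyond 4-fold left 32 members toward SK-LMS-1 and 5 toward SK-UT-1.

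In 13 members (12.5%) the higher line was at most 25% above the other, against 25.5% of all genes and 16.4% of protein-coding genes of the same level. LINC00094, now BRD3OS because it lies on the opposite strand beside the chromatin reader gene BRD3, had 253 counts in SK-UT-1 and 196 in SK-LMS-1, a ratio of 1.05 toward SK-UT-1 (0.869 to 1.27). LINC01420, the NBDY gene, had 154 and 147 counts, 1.17-fold toward SK-LMS-1 (0.929 to 1.48). LINC01234 had 126 and 113 counts. LINC00888, now SNHG33, had 105 and 87. LINC01004 had 93 and 74, and LINC00662 had 52 and 39. For all of these 6 the interval included equal levels. The 58 members with at least 10 counts in both lines included 5 at 4-fold or more toward SK-LMS-1 and 2 toward SK-UT-1.

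The 9 members that RefSeq lists as protein-coding all had at least 1 count in each line. For LINC00961 in SK-LMS-1 and LINC00341 in SK-UT-1 it was a single count, under the floor of 3. Of these 9, 4 differed at least 4-fold toward SK-LMS-1 and 1 toward SK-UT-1, against 10.7% and 7.08% of all genes. SMIM30 (LINC00998) and SPAAR (LINC00961) went in opposite directions, and their open reading frames are shown because they are the reason for the present symbols. Start and stop codons are in capitals. The SMIM30 frame has 59 codons before the stop (chr7:113117399-113117578, hg38, minus strand) and the SPAAR frame has 75 (chr9:35910464-35910691, plus strand).
SMIM30: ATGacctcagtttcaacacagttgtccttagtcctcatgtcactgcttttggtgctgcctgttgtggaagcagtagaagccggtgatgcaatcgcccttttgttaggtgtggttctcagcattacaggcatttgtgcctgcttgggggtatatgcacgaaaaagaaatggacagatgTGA
SPAAR: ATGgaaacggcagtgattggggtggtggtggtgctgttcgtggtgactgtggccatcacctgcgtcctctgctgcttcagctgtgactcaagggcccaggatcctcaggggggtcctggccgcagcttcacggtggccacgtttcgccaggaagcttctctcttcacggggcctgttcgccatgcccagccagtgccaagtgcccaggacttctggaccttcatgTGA

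The other protein-coding members differed by varying amounts. LINC00116, the gene of mitoregulin (MTLN), a microprotein of the inner mitochondrial membrane, had 17 counts in SK-LMS-1 against 4 in SK-UT-1, or 5.22-fold (1.70 to 21.3). LINC00341, which RefSeq lists under SYNE3, the nuclear envelope protein nesprin-3, had 37 and 1 counts. LINC00493 (SMIM26) had 34 and 28, with a ratio of 1.49 toward SK-LMS-1 and an interval of 0.878 to 2.55 that includes no difference. LINC01125, listed under C2orf92, had 10 in each line.

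A list of 21 LINC genes with a published role contained 15 members, of which 7 differed at least 4-fold toward SK-LMS-1, 1 toward SK-UT-1, and 7 differed less. Over all 104 members these shares were 35.6% and 11.5%, and over all genes 10.7% and 7.08%. LINC00704, known as MANCR for its association with mitosis, had 96 counts in SK-LMS-1 against 12 in SK-UT-1 and was higher in SK-LMS-1, with a 9.83-fold ratio (5.37 to 19.7). LINC01116, at the edge of the HOXD cluster, had 70 and 9 counts and was 9.55-fold higher (4.76 to 21.8). LINC00152, now CYTOR, an RNA tied to proliferation in many carcinomas, had 51 and 19 counts and was 3.30-fold higher (1.91 to 5.91). All 3 were higher in SK-LMS-1 beyond counting error.

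LINC01021, now PURPL, an RNA induced by p53 that in turn restrains p53, had 23 counts in SK-LMS-1 against 0 in SK-UT-1. LINC00632, the transcript from which the circular RNA CDR1as is made, had 28 and 0. LINC00673 had 25 and 6 counts. The remaining ones were closer, with LINC00941 at 38 and 24 counts, LINC00346 at 43 and 44, and LINC00467 at 30 and 50. Of the 6 listed genes that were not members, LINC00460, LINC00511, LINC00461 and LINC00473 had 0 counts in both lines, LINC01139 had 18 and 0, and LINC00261 had 10 and 0.

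Runs of members within 500 kb of each other numbered 6 and held 13 members. In 5 of the 6 runs all members leaned toward SK-LMS-1. Of all members 68.3% did, but that share is for single members and is no reference for whole runs. In the runs of LINC00115 with LINC01128 and of LINC00893 with LINC00894, the interval of 1 member included no difference (0.584 to 3.81 for LINC00115 and 0.623 to 2.05 for LINC00893). LINC01116 and LINC01117, next to each other beside the HOXD cluster, had 70 and 21 counts in SK-LMS-1, against 9 and 0 in SK-UT-1. LINC00702 and LINC00704 on the short arm of chromosome 10 had 27 and 96 counts in SK-LMS-1, against 2 and 12. LINC00619 and LINC00840, also on chromosome 10, had 41 and 23, against 0 for both. In the run on chromosome 2, LINC01106 and LINC01123 were higher in SK-UT-1 and LINC00116 was higher in SK-LMS-1. The first pair of that run shares exon bases and so is not independent.

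Intergenic RNAs are often co-expressed with the gene beside them, and each member was set beside the protein-coding gene with the nearest start within 100 kb. Such a gene existed for 59 of 104 members, and for 46 it had 20 or more summed counts. Of these 46 neighbours, 20 (43.5%) differed at least 2-fold between the lines, against 35.5% of all protein-coding genes and 36.7% of all genes. In 19 of the 20 pairs the member leaned in the same direction as its neighbour, and in 1 in the other. The 26 neighbours under 2-fold were mixed. Some of them leaned with their member and others against it, such as SETD1B beside LINC01089 and EPB41L1 beside LINC00657. The lean is the sign of the ratio alone. Among the 19, the member's own interval included no difference for LINC00893 (0.623 to 2.05) and LINC00467 (0.846 to 2.21). The same held for LINC00493 (0.878 to 2.55) and LINC01094 (0.787 to 4.51). These 20 neighbours split into 15 toward SK-LMS-1 and 5 toward SK-UT-1, and the 46 members themselves into 29 and 17. The 2 measures are not free of each other in every pair, since LINC01279 and LINC00341 are listed under the symbols of their own neighbours, CCDC80 and SYNE3.

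**Figure D3:**
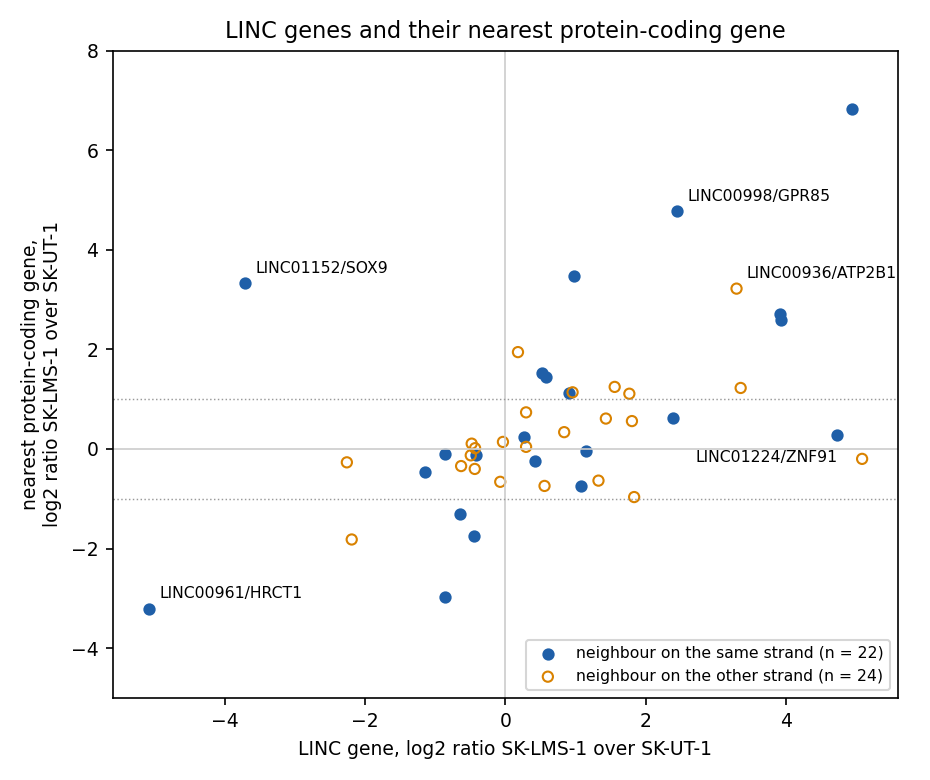
Log2 ratio of SK-LMS-1 over SK-UT-1 for 46 members (horizontal) and for the nearest protein-coding gene (vertical), with counts under 3 raised to 3; filled points have the neighbour on the same strand and open points on the other, and dotted lines mark 2-fold. Of the 20 neighbours beyond the dotted lines, 19 lie in the upper right or lower left of the plot, and LINC01152 beside SOX9 lies in the upper left.

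The pairs described next, apart from those of the largest silent members, were picked after their values were seen. LINC00998 and GPR85, the gene of an orphan receptor, start 30804 bases apart on the same strand, and GPR85 had 67 counts in SK-LMS-1 against 0 in SK-UT-1. LINC00936, now ATP2B1-AS1, had 24 and 1 counts, and ATP2B1, a calcium pump of the plasma membrane that starts 52888 bases away, had 2361 and 311, or 9.32-fold (8.28 to 10.5). In the other direction, SPAAR (LINC00961) had 1 and 125 counts and HRCT1, 3291 bases away, had 0 and 34. LINC01578 (CHASERR) had 181 and 346 counts and CHD2, a chromatin remodeller, had 628 and 1913, so that both were higher in SK-UT-1.

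The single opposite pair was LINC01152 and SOX9, the transcription factor gene of cartilage formation. LINC01152 had 2 and 48 counts, while SOX9, whose start is 90366 bases away, had 550 and 67 and was higher in SK-LMS-1, with a 10.1-fold ratio (7.81 to 13.2). Of the 20 silent in SK-UT-1, 7 had a protein-coding start within 100 kb and 4 had one with at least 20 counts. MEX3B, 42451 bases from LINC01583, had 158 and 83 counts. ZNF91, 20514 bases from LINC01224, had 1007 and 1015 counts, and SETD4, 55498 bases from LINC01436, had 78 and 110, so that these 2 members were silent beside genes that both lines expressed.

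Promoter windows from RefSeq (250 bases before to 50 after the gene start, GRCh38.p14) were found for 82 members, including 16 of the 21 silent ones. CpG dinucleotides, which cluster in the unmethylated islands at most housekeeping promoters, were scored as observed over expected from base composition. The 16 silent members had a median of 0.329 and 3.5 CpGs per window, and 3 of 16 (18.8%) reached 0.6. The 46 members with at least 10 counts in both lines had a median of 0.681 and 20 CpGs, and 28 (60.9%) reached 0.6. Members with at least 10 counts in both lines but fewer than 100 in all had a median of 0.643, and 12 of 23 (52.2%) reached 0.6. These members share only the upper limit of 100 summed counts with the silent ones and were not matched to them by level. Protein-coding genes with fewer than 100 summed counts had 0.717 when silent in 1 line and 0.816 when at 10 counts or more in both. Over all 35116 windows the median was 0.579, and 48.9% reached 0.6.

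The windows of 4 members are shown as examples, with CG in capitals. LINC00839 (chr10:42475241-42475540, plus strand) was silent in SK-UT-1 and holds 9 CpGs. LINC00578 (chr3:177441671-177441970, plus strand) was silent in SK-LMS-1 and holds 3. LINC00094 (chr9:134025231-134025530, plus strand) and LINC01420 (chrX:56728993-56729292, plus strand) had near-equal levels and hold 28 and 10. By number, LINC01420 hardly differs from LINC00839, while observed over expected CpG was 0.816 and 0.433. RefSeq lists both near-equal members as protein-coding and both silent ones as long non-coding RNA, so in these examples silence and gene class cannot be told apart.
LINC00839: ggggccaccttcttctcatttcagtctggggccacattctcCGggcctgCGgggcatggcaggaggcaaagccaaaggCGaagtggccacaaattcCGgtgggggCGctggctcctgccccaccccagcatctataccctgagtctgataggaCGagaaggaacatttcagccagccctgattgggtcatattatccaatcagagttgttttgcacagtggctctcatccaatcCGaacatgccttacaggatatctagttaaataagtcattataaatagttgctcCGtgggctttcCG
LINC00578: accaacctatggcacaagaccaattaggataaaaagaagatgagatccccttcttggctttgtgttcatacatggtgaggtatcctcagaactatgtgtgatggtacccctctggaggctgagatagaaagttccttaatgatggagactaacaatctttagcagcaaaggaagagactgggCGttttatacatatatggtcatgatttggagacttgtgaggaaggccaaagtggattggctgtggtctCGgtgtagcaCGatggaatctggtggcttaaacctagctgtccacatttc
LINC00094: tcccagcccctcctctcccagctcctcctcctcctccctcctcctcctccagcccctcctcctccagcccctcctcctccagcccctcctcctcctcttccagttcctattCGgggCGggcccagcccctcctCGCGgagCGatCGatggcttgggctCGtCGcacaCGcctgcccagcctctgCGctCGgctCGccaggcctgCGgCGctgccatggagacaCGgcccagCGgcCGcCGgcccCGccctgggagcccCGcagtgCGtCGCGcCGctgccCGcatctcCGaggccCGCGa
LINC01420: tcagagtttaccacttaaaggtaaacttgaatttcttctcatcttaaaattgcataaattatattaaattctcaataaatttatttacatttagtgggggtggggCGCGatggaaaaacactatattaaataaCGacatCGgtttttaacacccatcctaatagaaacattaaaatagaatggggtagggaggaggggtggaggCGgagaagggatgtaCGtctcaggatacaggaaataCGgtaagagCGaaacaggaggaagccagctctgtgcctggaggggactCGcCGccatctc

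**Figure D4:**
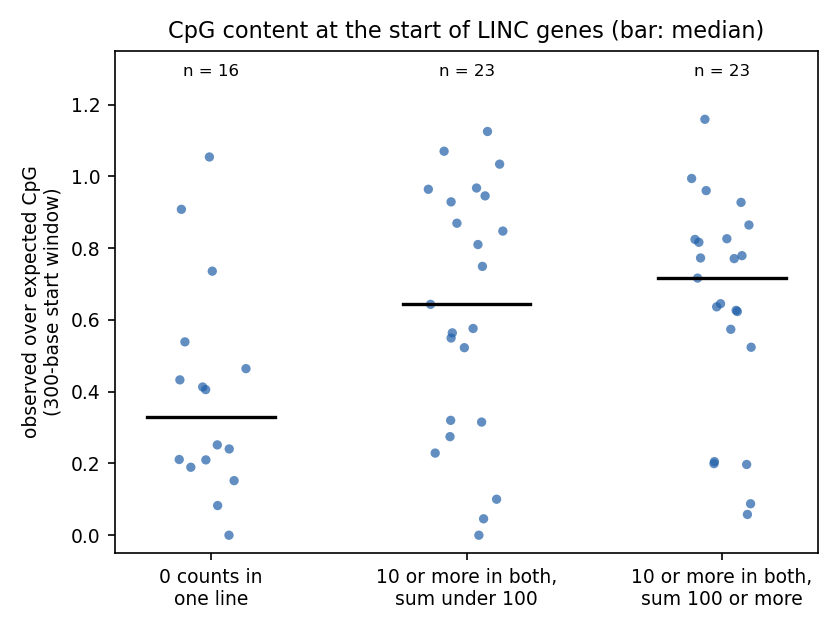
Observed over expected CpG in the 300-base start window (vertical) for members silent in 1 line (n = 16) and for members with at least 10 counts in both lines and a summed count under 100 (n = 23) or of 100 and more (n = 23), with a bar at each median. The silent group has a median of 0.329 and the other groups 0.643 and 0.717, and the points overlap, with LINC00886 and LINC01117 high among the silent.

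The separation was not complete. Among the silent members LINC00886 had an observed over expected CpG of 1.05 and LINC01117 of 0.908, while LINC01021 (PURPL) had no CpG in its window. A set of 4 short motifs was searched on both strands. TATAAA, the core of the TATA box, was in 4 of 16 silent windows (25%), in 4 of 46 windows of members with 10 counts in both lines (8.70%) and in 11.5% of all windows. GGGCGG, the GC box, was in 5 (31.2%), 23 (50%) and 45.0%, and CCAAT in 5 (31.2%), 23 (50%) and 34.6%. TGANTCA, the AP-1 element, was in 1 (6.25%), 5 (10.9%) and 7.71%. With 16 windows each of these shares rests on 5 matches or fewer, and a match is a run of letters and not a binding site.

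Other long non-coding classes, set by symbol, had fewer silent genes at the same minimum. Of 203 antisense genes (symbols with -AS), 10 (4.93%) were silent in 1 line, with 9 of the 10 silent in SK-UT-1, against 14.6% of protein-coding genes of their level. Of 162 uncharacterised LOC genes without a protein entry, 10 (6.17%) were silent, 7 in SK-UT-1 and 3 in SK-LMS-1, against 14.5%. None of 16 small nucleolar RNA host genes was silent. Of 11 microRNA host genes 1 (9.09%) was silent, near the 9.80% of protein-coding genes of their level. Of 14 intronic or overlapping transcripts 1 (7.14%) was silent, against 18.0%. The median log2 ratio was 0.19 for antisense and 0.19 for LOC genes, against 0.97 for LINC members. LINC members thus lay above the protein-coding share of their level, and the antisense and LOC genes below theirs, with no test possible at 1 library per line.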

How the data were processed

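Raw counts per gene were deposited for both libraries. Per the file headers, the authors made them with featureCounts 2.0.1 on exons of a UCSC hg38 annotation, grouped by gene name, for read pairs on strand setting 1, and with reads counted for every gene they overlap. The submitters' processing notes give hg38 as the build. For the aligner, nothing is given in the sources used here. A further 2 count columns matched neither sample and were not used.

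Libraries were scaled by TMM (edgeR 4.0.16, R 4.3.3), so that 1 count equals 0.124 CPM in SK-UT-1 and 0.153 in the other library. CPM and RPKM were computed here from the deposited counts. Ratios have exact conditional binomial intervals at 95% (Clopper-Pearson, scipy 1.17.1). Ratios against a count of 0 use a floor of 3 counts. Ratios against 1 or 2 counts are printed from the counts themselves. Intervals and floors cover counting error only. Protein-coding genes were matched in 6 classes of summed count (from 20, 50, 100, 200, 500 and 1000) and weighted by the number of members in each. Biotypes came from RefSeq (GRCh38.p14): 23758 symbols matched directly, 1562 as older symbols and 1165 not at all. The calculation was tested on simulated data. Overlaps were found with bedtools 2.31.1.

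Genes named in the text are the 8 highest by RPKM, the 8 largest silent ones per line, the 6 largest at 4-fold per direction and among near-equal members, the protein loci, the list of published roles, the members at the edge of the minimum and the neighbours of the silent ones. Other genes were named after their values were seen. The members and lists were chosen with earlier results of these data known. Alternatives changed the scaling, the minimum, the size rule, the definition of silence and of equal level, and the neighbour distance.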

Additional observations from a re-analysis of the deposited data

How the results depend on the processing

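Library totals, DESeq2 size factors (DESeq2 1.42.0) and the upper quartile left 37 and 12 members at 4-fold in each direction, and the median log2 ratio was 0.82, 0.97 and 0.84. Library totals and the upper quartile moved the median of all genes to -0.15 and -0.13. No alternative run reversed the direction of the median log2 ratio of members. The median log2 ratio of members fell to 0.59 with a minimum of 50 summed counts and 0.38 with 100, and the count toward SK-LMS-1 rose to 47 with a minimum of 10 and to 51 with a 2-fold rule. With an 8-fold rule, or with the whole interval beyond 4-fold, 5 members passed toward SK-UT-1. A minimum of 10 summed counts gave silent shares of 23.0% for members and 18.5% for protein-coding genes at equal level. A minimum of 50 gave 18 and 7 members at 4-fold and silent shares of 10.9% for members and 7.71% for protein-coding genes. A minimum of 100 gave 7 and 4 members and shares of 0% and 4.42%. No excess of silent members was seen there, but 0 of 34 members allows a share of up to 8.82%. The order of the 2 shares at that minimum is therefore not settled. With silence as fewer than 3 counts, 5 members were silent in SK-LMS-1, and the shares were 30.8% and 20.5%. Matching protein-coding genes on the higher count gave 10.4% and on counts per kilobase 11.2%. Without members of uncertain locus the share of SK-UT-1 counts was 0.0990%. Without LINC00657, which was added after seeing the data, members took 0.0695% of the SK-UT-1 counts and 0.1001% of those of the other line. With opposite-strand neighbours only, 8 neighbours differed 2-fold. No paired analysis was possible because each line has 1 library and the labels carry no replicate number. As for depth, a count of 0 allows 0.373 CPM in SK-UT-1 and 0.458 CPM in the other line, and 67.3% of members have fewer than 100 counts.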
